A study of Homo sapiens with 12 samples.

Results

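The Notch genes described here are 3 receptors (NOTCH1, NOTCH2 and NOTCH3), 3 ligands (DLL1, DLL3 and JAG1) and 4 transcription factors of the HES and HEY families (HES1, HES4, HES6 and HEY1). They are 10 of the 19923 genes in the deposited count tables, and each was found by its gene name. They were chosen by pathway and by 1 measured value, the lower count of HES4 in NGP with STM2457. Earlier results of these data were known when the choice was made. The NGP response of all 10 is therefore given as a description with no test, and their response in SK-N-BE2 is tested. SK-N-BE2 and NGP are established human neuroblastoma cell lines, both labelled as MYCN-amplified and as wild type in genotype. Cells received STM2457, an inhibitor of the m6A writer enzyme METTL3, or DMSO as the control for 6 days. SK-N-BE2 received 12 µM and NGP received 1 µM, and each of the 4 groups had 3 replicates. The labels do not say whether replicates were separate cultures, so p-values measure only the spread between these libraries. Each group is a single cell line, so a difference between the lines may also carry that of sequencing run. Where treated groups or responses are compared, it also carries that of dose. These cannot be told apart.

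In the Notch pathway a ligand on one cell binds a receptor on its neighbour, and the receptor is cut so that its intracellular part enters the nucleus. There it joins RBPJ, a DNA-binding protein, and Mastermind coactivators, and switches on genes of the HES and HEY families. HES1, HES4 and HEY1 encode repressors that hold back proneural factors, while HES6 differs from HES1 in that it counteracts it and favours neuronal differentiation. In neuroblastoma cells, Notch signalling is known for moving cells from an adrenergic towards a mesenchymal state.

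The promoter sequences of HES1 and HES4 are shown because their levels carry the main differences below and because both hold the letters that RBPJ binds. The 250 bases before the RefSeq start were searched on both strands for TGGGAA, the core letters bound by RBPJ. RefSeq promoters on GRCh38.p14 were matched for 7 of the 10 members, all but DLL1, DLL3 and HEY1. TGGGAA occurred in 2 of the 7, with 2 matches in HES1 and 1 in HES4, against 20.8% of 35116 promoters with at least 1 match and 2.90% with 2 or more. The HES1 matches lay 84 to 79 and 70 to 65 bases before the start, and the HES4 match 76 to 71 bases before its RefSeq start. The gene model of the count tables starts further upstream for HES4, and most of the HES4 stretch printed here lies inside that model. The 30 bases from just before the first match are aligned here, 5′ to 3′ on the gene's strand, with TGGGAA in capitals (HES1 chr3:194136062-194136091, plus strand; HES4 chr1:1000146-1000175, minus strand).
HES1: tgTGGGAAagaaagttTGGGAAgtttcaca
HES4: tgTGGGAAagaatgcggagccgggttcaca
The first 12 bases were identical and 21 of the 30 positions matched, and the second TGGGAA of HES1 is not in the HES4 stretch. Matches are a description of letters and not of bound sites. The HES1 window as a whole (chr3:194135898-194136147) is shown because it also held the letters that HES and HEY proteins bind, namely 3 matches to CACNAG and 2 to CACGCG on either strand, none of which overlapped another match.
HES1: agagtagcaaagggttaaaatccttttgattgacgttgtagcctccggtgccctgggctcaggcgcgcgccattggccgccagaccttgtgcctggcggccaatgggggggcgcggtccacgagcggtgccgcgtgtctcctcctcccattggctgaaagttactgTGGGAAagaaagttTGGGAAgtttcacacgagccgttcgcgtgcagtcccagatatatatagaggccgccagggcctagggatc
Across all promoters, 6.32% held 2 or more CACNAG and 1.61% held 2 or more CACGCG. In HES4 neither was found in these 250 bases, while NOTCH3 held 1 CACNAG.

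Libraries held between 47242379 and 58159937 reads. In NGP, leaving out DMSO replicate 1 lowered the spread more than leaving out any other library. The biological coefficient of variation of NGP was 0.155 with it, 0.0944 without it and 0.146 to 0.174 without another library, so the members' NGP fold changes are also given without that library. All 10 adrenergic neuroblast markers were detected in each group, with a summed level of 9184 to 11303 CPM in SK-N-BE2 and 5918 to 7500 CPM in NGP (CPM, reads scaled to a common library size with TMM factors). TH, the first enzyme of catecholamine synthesis, was nearly absent in NGP (0.512 ± 0.380 CPM with DMSO, SD, n = 3).

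In SK-N-BE2, HES1 fell with STM2457 and NOTCH3 rose. In NGP the direction of HES1 was the opposite, and HES4, NOTCH1, DLL1 and JAG1 lay lower in every treated library than in any DMSO library. In SK-N-BE2, 9 of the 10 members had enough reads to test (all but DLL1). Of these, 1 was called higher and 1 lower at an edgeR adjusted p under 0.05, and 7 were not called. Over all 14013 genes tested 26.9% were called higher and 27.8% lower, 54.7% in all, so the members' share lay below that of all genes. Replicates of the groups did not overlap for 1 member upward and 1 downward, beside 33.2% and 29.0% of all genes tested. The median log2 fold change of the 9 was -0.13, against -0.02 over all genes tested. In NGP, 9 members had enough reads (all but NOTCH2). Replicates of the groups did not overlap for 2 of them upward and 4 downward, beside 28.4% and 26.2% of the 13610 genes tested there. At an adjusted p under 0.05, 41.7% of all genes were called in NGP. Nothing is read from the members' count, since the NGP response chose the members.

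**Figure D1:**
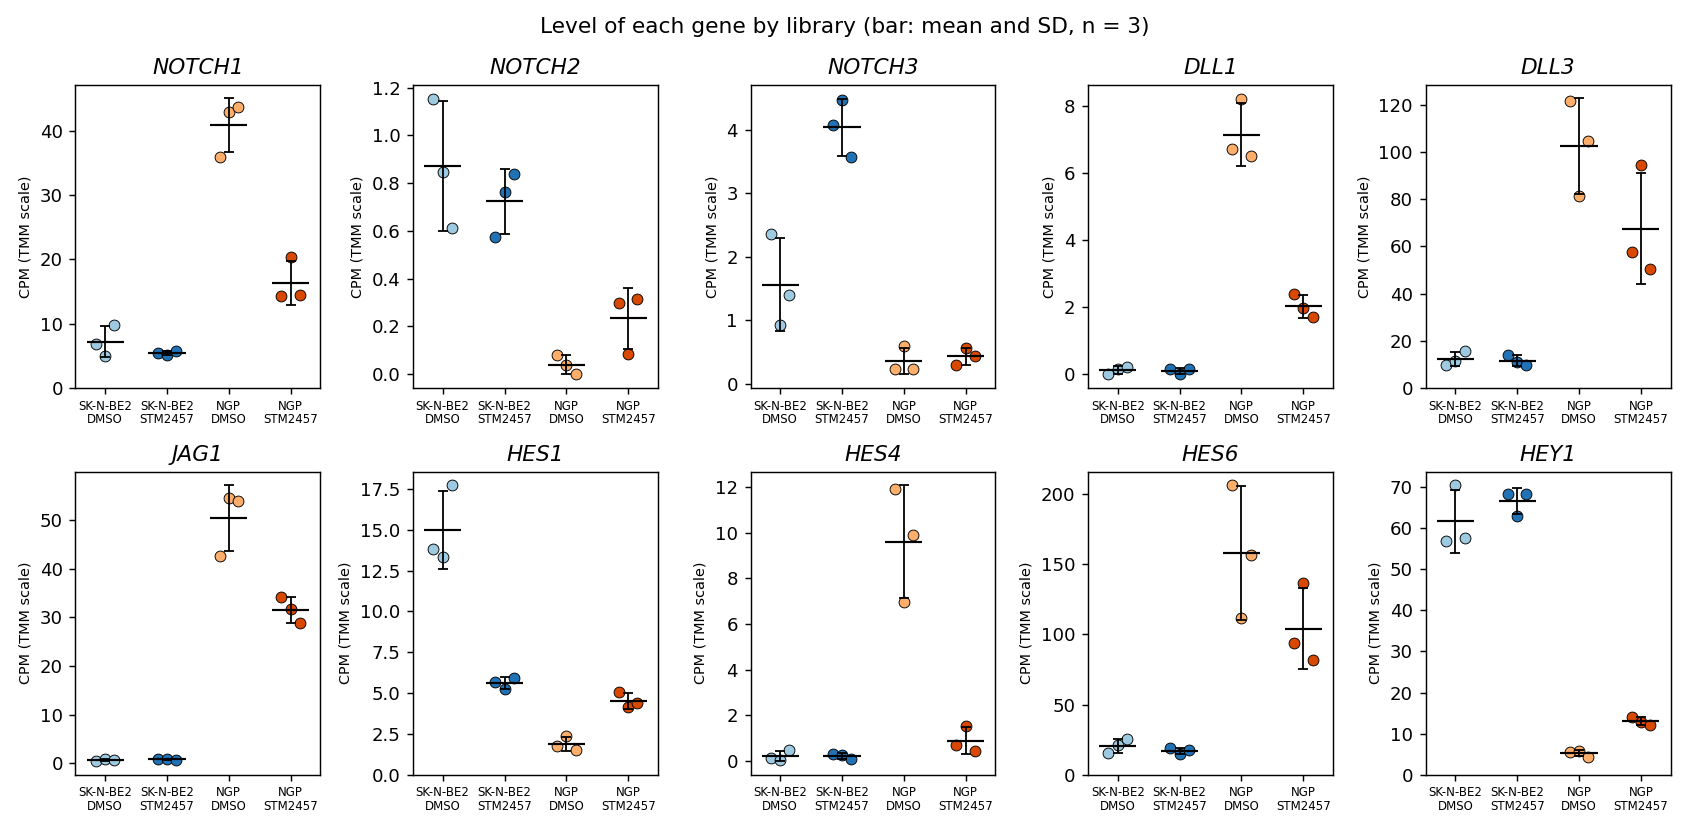
Level of each of the 10 genes in CPM (vertical axis, linear, its own scale for each gene) in the 12 libraries, by group; points are libraries, and the bars are the mean and SD of 3. HES4 is near 0 in both SK-N-BE2 groups, and HES1 moves in opposite directions in the 2 lines.

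NOTCH1 (chromosome 9, 136494433 to 136546048, minus strand, GRCh38), the receptor most studied in development and leukaemia, was the highest of the 3 receptors per kilobase of exon in all 4 groups. In SK-N-BE2 it measured 6.89, 4.95 and 9.77 CPM with DMSO and 5.45, 5.14 and 5.81 CPM with STM2457. The groups overlapped, and the log2 fold change of -0.44 (SE 0.20) was not called (edgeR adjusted p 0.0832). Leaving out DMSO replicate 2, the lowest control, gave -0.64 with an edgeR adjusted p of 0.00668, and leaving out DMSO replicate 3, the highest control, gave -0.16 with an edgeR adjusted p of 0.483. In NGP, NOTCH1 measured 36.0, 42.9 and 43.8 CPM with DMSO and 14.3, 20.3 and 14.5 CPM with STM2457. No treated NGP library reached a control library there. The NGP log2 fold change was -1.35 (SE 0.16), and -1.43 without DMSO replicate 1.

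NOTCH3 (chromosome 19, 15159038 to 15200995, minus strand), a receptor of vascular smooth muscle that is also linked to the mesenchymal state of neuroblastoma, was the 1 member that rose in SK-N-BE2. It measured 2.36, 0.926 and 1.40 CPM with DMSO and 4.08, 4.47 and 3.58 CPM with STM2457. Each treated library exceeded each control, and the log2 fold change was 1.33 (standard error 0.28, adjusted p 0.00119 by edgeR). In NGP the reads were few and the groups overlapped, from 0.233 to 0.587 CPM with DMSO and from 0.299 to 0.556 CPM with STM2457. The NGP log2 fold change was 0.26 (SE 0.49), 0.04 without DMSO replicate 1 and 0.83 without DMSO replicate 2.

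NOTCH2 (chromosome 1, 119911553 to 120100779, minus strand), a receptor with roles in B cells and kidney, reached at most 1.15 CPM in any library. It is uncertain, since partial copies of the gene (the NOTCH2NL genes) share sequence with it and reads that fit several places were not counted. In SK-N-BE2 its log2 fold change was -0.31 (standard error 0.34, adjusted p 0.473 by edgeR). NGP held 6 NOTCH2 reads with DMSO and 34 with STM2457, too few to enter the fit. The counting intervals at 95% (exact Poisson, which cover counting error only) ran from 0.0144 to 0.0854 CPM and from 0.163 to 0.329 CPM.

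For each ligand the log2 difference between the untreated lines, given further on, was larger in size than its response in either line where that could be fitted. JAG1 (chromosome 20, 10637684 to 10673999, minus strand), a ligand of the Jagged family, measured 42.7, 54.6 and 54.0 CPM in NGP with DMSO and 34.1, 31.8 and 28.8 CPM with STM2457. The treated libraries all lay below the controls, with a log2 fold change of -0.70 (SE 0.13), and -0.81 without DMSO replicate 1. In SK-N-BE2 JAG1 stayed between 0.524 and 0.997 CPM in all 6 libraries, and its log2 fold change of 0.28 (SE 0.32) was not called (edgeR adjusted p 0.484).

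DLL1 (chromosome 6, 170282206 to 170306565, minus strand), a Delta ligand that activates Notch on neighbouring cells, measured 6.71, 8.22 and 6.50 CPM in NGP with DMSO. With STM2457 it measured 2.39, 1.97 and 1.70 CPM. The log2 fold change was -1.85 (SE 0.20), and -1.89 without DMSO replicate 1, with no overlap between the groups. In SK-N-BE2 only 19 reads were counted with DMSO and 16 with STM2457 over 3 libraries each, and it was not tested. Exons of FAM120B on the other strand overlap 9.69% of its exon length, and strand was not used in counting.

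DLL3 (chromosome 19, 39498895 to 39508481, plus strand), a divergent ligand that inhibits Notch within the same cell and is a surface target in neuroendocrine tumours, was the highest of the 3 ligands per kilobase of exon in all 4 groups. In NGP it measured 122, 81.5 and 105 CPM with DMSO and 57.6, 94.6 and 50.5 CPM with STM2457. The groups overlapped through 1 treated library, replicate 2, and the log2 fold change was -0.63 (SE 0.24), or -0.49 without DMSO replicate 1. In SK-N-BE2 it ran from 9.82 to 15.8 CPM with DMSO and from 9.82 to 14.0 CPM with STM2457, a log2 fold change of -0.13 (standard error 0.17, adjusted p 0.538 by edgeR).

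HES4 (chromosome 1, 998962 to 1000172, minus strand), a repressor close in type to HES1, is the gene whose lower level in treated NGP led to the choice of this pathway. In NGP with DMSO it measured 11.9, 6.98 and 9.90 CPM, from 600, 357 and 509 reads. With STM2457 it measured 0.684, 1.54 and 0.434 CPM, from 32, 72 and 22 reads. The treated group lay far below the control group, by a log2 fold change of -3.47 (SE 0.42), an 11.1-fold difference, and by -3.29 without DMSO replicate 1. Leaving out any 1 of the 6 libraries gave -4.10 to -3.13, the lowest without STM2457 replicate 2, the highest of the treated libraries. SK-N-BE2 hardly held the transcript, with 34 reads over the 3 DMSO libraries and 32 over the 3 STM2457 libraries. Its level there was 0.213 ± 0.219 CPM and 0.202 ± 0.131 CPM (SD, n = 3). The log2 fold change of -0.11 had an SE of 0.76 (edgeR adjusted p 0.911), so a difference was not detectable at this depth.

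HES1 (chromosome 3, 194136148 to 194138732, plus strand), the best known Notch target and a repressor that keeps progenitors undifferentiated, carries the pair of TGGGAA matches shown above. In SK-N-BE2 it measured 13.8, 13.3 and 17.7 CPM with DMSO and 5.67, 5.23 and 5.92 CPM with STM2457. Each treated library lay below each control, with a log2 fold change of -1.45 (standard error 0.14, adjusted p 1.48e-06 by edgeR), a 2.74-fold difference. In NGP it measured 1.75, 2.39 and 1.50 CPM with DMSO and 5.06, 4.15 and 4.36 CPM with STM2457. There each treated library exceeded each control, with a log2 fold change of 1.24 (SE 0.23), and 1.19 without DMSO replicate 1. The SK-N-BE2 minus NGP difference of the responses was -2.68 on the log2 scale (SE 0.26), given without a test. After treatment the lines lay close together, at 5.61 ± 0.347 CPM in SK-N-BE2 and 4.52 ± 0.478 CPM in NGP (SD, n = 3).

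HEY1 (chromosome 8, 79764010 to 79767857, minus strand), a repressor of the related HEY family, was high in SK-N-BE2 under both treatments. It measured 56.9, 70.5 and 57.8 CPM with DMSO there and 68.4, 63.1 and 68.4 CPM with STM2457. The groups overlapped, and the log2 fold change was 0.07 (standard error 0.10, adjusted p 0.548 by edgeR). In NGP it measured 5.58, 5.69 and 4.32 CPM with DMSO and 14.0, 12.8 and 12.1 CPM with STM2457, a log2 fold change of 1.30 (SE 0.16) with no overlap, and 1.35 without DMSO replicate 1. HEY1 and HES1 were the 2 members, of the 9 with enough reads in NGP, that lay higher in every treated library.

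HES6 (chromosome 2, 238238267 to 238240662, minus strand), the family member that opposes HES1, was the highest of the 4 HES and HEY genes per kilobase of exon in NGP. It measured 207, 111 and 157 CPM with DMSO there and 93.9, 137 and 81.5 CPM with STM2457, with overlap between the groups. The log2 fold change was -0.63 (SE 0.25), and -0.39 without DMSO replicate 1, which held the highest value. In SK-N-BE2 it ran from 15.3 to 25.3 CPM with DMSO and from 14.7 to 18.7 CPM with STM2457. The log2 fold change of -0.31 (SE 0.16) was not called (edgeR adjusted p 0.115). It was -0.48 without DMSO replicate 1, the lowest control (edgeR adjusted p 0.00572), and -0.13 without DMSO replicate 3, the highest (edgeR adjusted p 0.496).

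**Figure D2:**
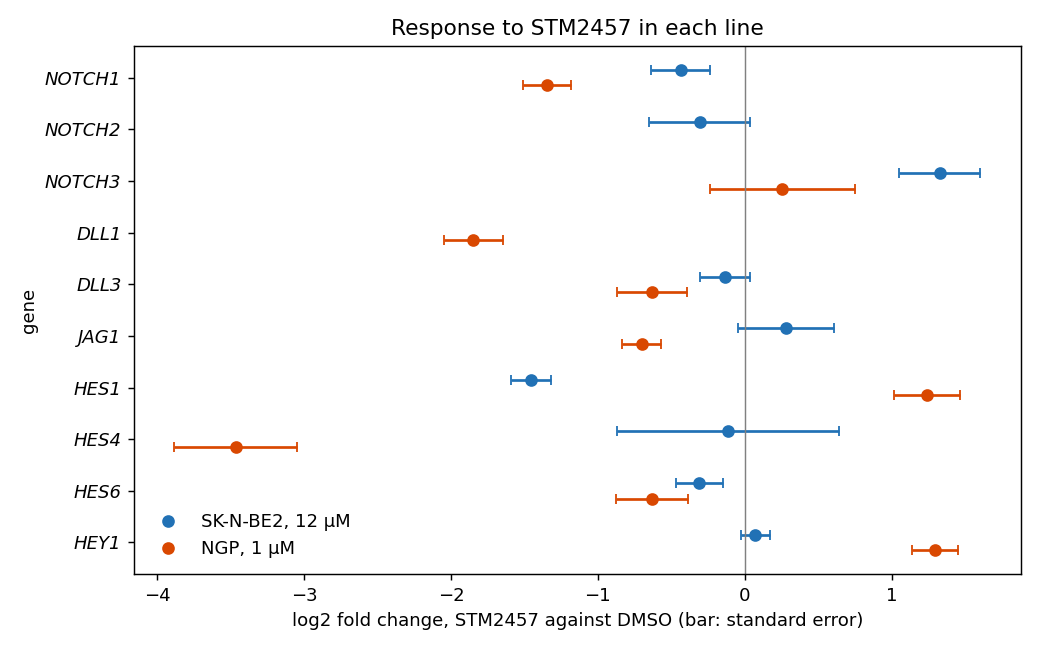
Log2 fold change of STM2457 against DMSO (horizontal axis) for each of the 10 genes, with standard errors, in SK-N-BE2 and NGP; genes without enough reads in a line have no point. HES1 lies left of 0 in SK-N-BE2 (-1.45) and right of it in NGP (1.24), where HES4 lies at -3.47.

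Between the untreated lines, replicates did not overlap for any of the 10 members, with 6 higher in NGP and 4 lower, beside 33.9% and 35.0% of all genes tested. HES4, chosen in part by its NGP level, is among the 6, so nothing is read from that count. In the test of NGP DMSO against SK-N-BE2 DMSO, fitted on all 12 libraries, 71.1% of 14731 genes were called, 35.4% higher in NGP and 35.7% lower. HES4 was left out of the test, because its NGP level took part in its choice. Of the other 9 members, NOTCH1, DLL3, JAG1 and HES6 were called higher in NGP, and NOTCH3, HES1 and HEY1 lower. DLL1 (higher in NGP) and NOTCH2 (lower) had enough reads for the filter only in the line where they were higher. Their differences are therefore given without a p-value. The largest difference was that of JAG1, at a log2 difference of 6.15 (standard error 0.18, adjusted p 1.72e-12 by edgeR), followed by DLL1 at 5.86 (standard error 0.56). NOTCH1 was higher in NGP by 2.50 on the log2 scale (SE 0.21), DLL3 by 3.05 (SE 0.25) and HES6 by 2.95 (SE 0.25), with edgeR adjusted p from 6.05e-08 to 8.26e-08. HEY1 was lower in NGP at -3.57 (standard error 0.13, adjusted p 1.45e-11 by edgeR) and HES1 at -2.99 (standard error 0.19, adjusted p 3.70e-09 by edgeR). NOTCH3 was lower at -2.14 (standard error 0.41, adjusted p 0.000331 by edgeR) and NOTCH2 at -4.39 (standard error 0.67). Without NGP DMSO replicate 1, NOTCH2 stood at -5.34, and DLL1 at 5.21 without SK-N-BE2 DMSO replicate 1 and 6.48 without SK-N-BE2 DMSO replicate 3. HES4 was higher in NGP, at a log2 difference of 5.47 (SE 0.60), given without a test, and 6.62 without SK-N-BE2 DMSO replicate 3.

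Ordered by level over the 4 groups, NGP DMSO was the highest group for NOTCH1, DLL1, DLL3, JAG1, HES4 and HES6. For DLL3 and HES6, the NGP DMSO and NGP STM2457 groups overlapped. HES1 and NOTCH2 were highest in SK-N-BE2 DMSO, and NOTCH3 and HEY1 in SK-N-BE2 STM2457. Neighbouring SK-N-BE2 groups overlapped for all members other than NOTCH3 and HES1. HES4 in treated NGP overlapped with SK-N-BE2 DMSO, and NOTCH3 overlapped between the NGP groups. For HES1 all 4 groups were separate, in the order SK-N-BE2 DMSO, SK-N-BE2 STM2457, NGP STM2457 and NGP DMSO.

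Levels of different genes were compared per kilobase of exon. Among the 4 HES and HEY genes, HEY1 made up 51.8% ± 5.98 of the summed CPM per kilobase in SK-N-BE2 with DMSO and 64.1% ± 1.40 with STM2457 (SD, n = 3). The HES1 share there was 19.7% ± 2.71 with DMSO and 8.44% ± 0.271 with STM2457, with no overlap between groups. In NGP, HES6 held 87.7% ± 1.39 with DMSO and 88.0% ± 2.14 with STM2457. The share of HES4 in NGP was 9.37% ± 0.386 and 1.23% ± 0.500, the second largest with DMSO and the smallest with STM2457. HEY1 had 1.86% ± 0.695 and 6.94% ± 1.56 in NGP, and HES1 1.09% ± 0.576 and 3.82% ± 1.05.

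Among the receptors, NOTCH1 held 76.1% ± 8.01 of the summed CPM per kilobase in SK-N-BE2 with DMSO and 52.5% ± 3.96 with STM2457. The NOTCH3 share there was 18.7% ± 6.70 and 43.8% ± 4.25, so the RNA of these 3 receptors in treated SK-N-BE2 was nearly even between NOTCH1 and NOTCH3. NOTCH4 is not in this sum, and stood at 0.109 CPM per kilobase in treated SK-N-BE2, against 0.0363 for NOTCH2. The summed receptor level was 0.887 ± 0.253 CPM per kilobase with DMSO and 0.980 ± 0.0149 with STM2457. In NGP, NOTCH1 held 99.0% ± 0.502 and 96.4% ± 0.623, and the summed level was 3.88 ± 0.407 with DMSO and 1.59 ± 0.329 with STM2457. DLL3 dominated the 3 ligands in all groups, from 83.9% ± 4.25 in NGP with DMSO to 97.8% ± 0.719 in SK-N-BE2 with DMSO. JAG2, a ligand outside the members and named after its value was seen, is not in this sum. Per kilobase it lay above DLL3 in SK-N-BE2, at 10.7 against 4.73 CPM with DMSO and 10.8 against 4.43 CPM with STM2457. In NGP it lay below DLL3, at 20.7 against 39.2 CPM with DMSO and 11.4 against 25.8 CPM with STM2457. Shares of a sum depend on one another, and they were not tested.

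**Figure D3:**
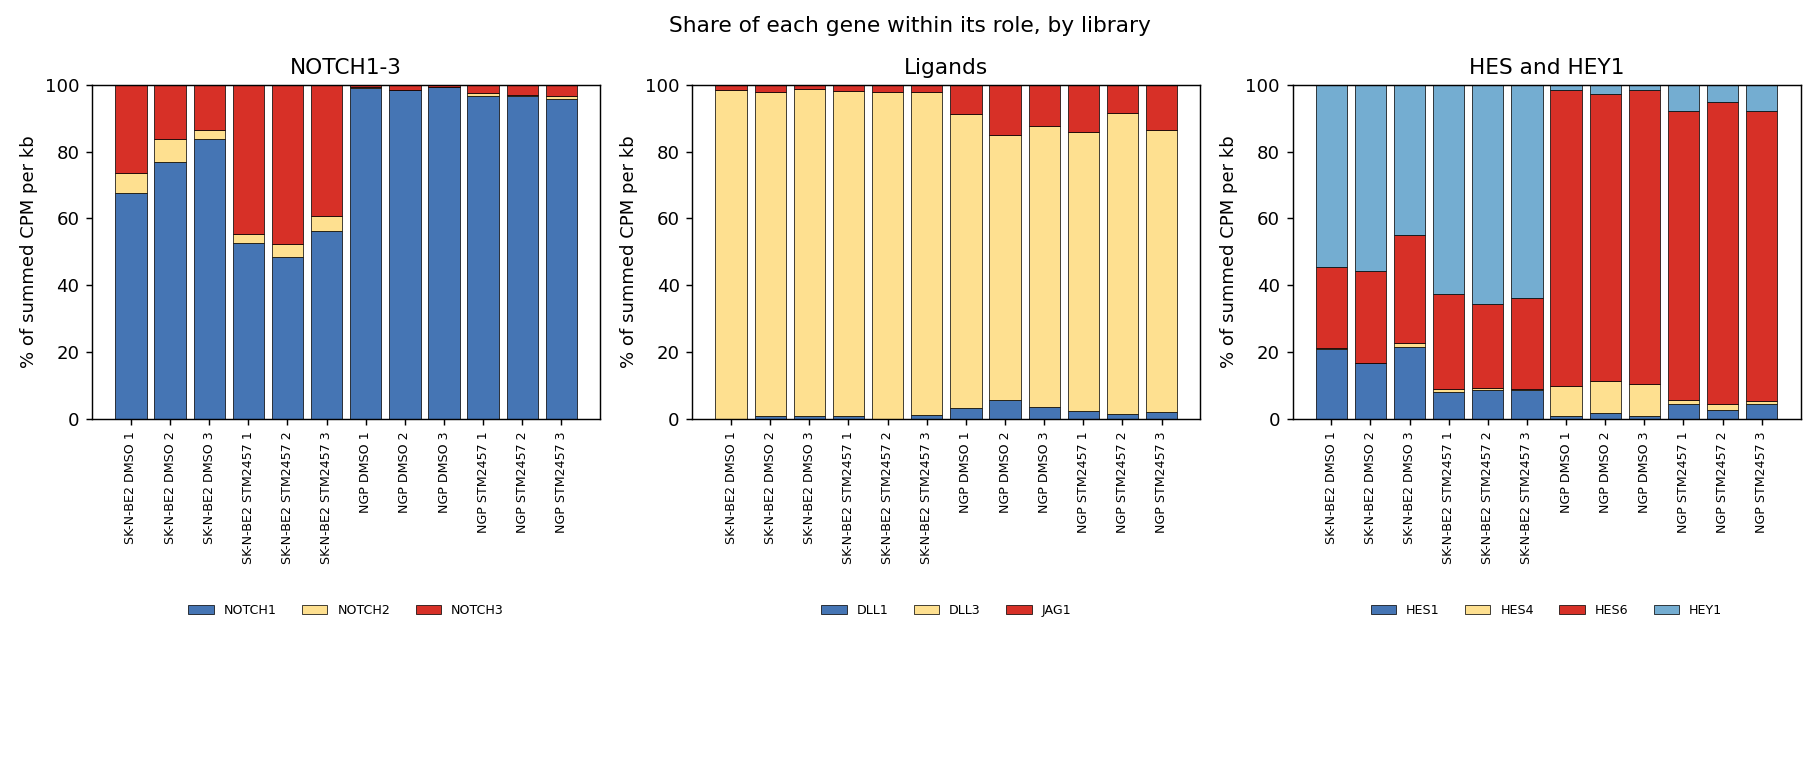
Share of each gene (vertical axis, percent of the summed CPM per kilobase of exon within receptors, ligands or HES and HEY genes) in each of the 12 libraries. HEY1 has the largest HES and HEY share in SK-N-BE2 and HES6 in NGP, and the NOTCH3 share of the receptors is larger in treated SK-N-BE2.

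Another 76 genes of the pathway, in 7 lists, were examined for the wider picture, and 66 could be tested in each line. In SK-N-BE2, 17 were called higher and 19 lower, with a median log2 fold change of -0.01 against -0.02 over all genes tested. Of all genes tested, 26.9% were called higher and 27.8% lower, so these shares lie near the background. With upper-quartile scaling the split was 12 higher and 21 lower. In NGP, 5 were called higher and 25 lower, where 19.4% and 22.2% of all genes were called, and the median was -0.15 against -0.03. The difference of the responses could be tested for 69 of them, and 17 were called higher in SK-N-BE2 than in NGP and 8 lower (12 and 10 with upper-quartile scaling), where 30.9% of all genes were called, 17.0% higher and 13.9% lower. These genes took no part in the choice of members and are tested in both lines. The lists were drawn up with earlier results of these data known, so their counts are not independent of the data.

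Of the other receptors and ligands, 5 of 6 tested in NGP fell and 0 rose (also 0 at an unadjusted p under 0.05). The median log2 fold change was -1.40. DLL4, a Delta ligand of blood vessels, fell from 10.3 ± 0.661 CPM to 0.452 ± 0.0722 CPM in NGP (SD, n = 3), a log2 fold change of -4.53 (standard error 0.20, adjusted p 3.06e-06 by edgeR). DLK2, an atypical ligand relative, fell by 2.38 on the log2 scale there (standard error 0.26, adjusted p 0.000206 by edgeR). In SK-N-BE2, 2 of 7 were called higher (NOTCH4 and CNTN1) and 1 lower. This total of 3 was 1 without DMSO replicate 2, STM2457 replicate 1 or STM2457 replicate 3. DLK1, a non-canonical ligand, fell from 527 ± 66.2 CPM to 347 ± 27.7 CPM in SK-N-BE2 (a log2 difference of -0.64 with standard error 0.10, and an adjusted p of 0.000171 by edgeR). NOTCH4, the fourth receptor, had 1.24 (standard error 0.43, adjusted p 0.0250 by edgeR) at 1.06 ± 0.0589 CPM with STM2457, a call lost without each one of 5 of the 6 libraries (adjusted p up to 0.0732).

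The genes that add sugars to the receptor and cut it were lower in NGP for 7 of 14 and higher for 0, with 0 higher at an unadjusted p under 0.05 as well. MFNG, a Fringe enzyme that changes which ligands a receptor prefers, fell from 177 ± 36.0 CPM to 98.0 ± 4.61 CPM there (a log2 difference of -0.88 with standard error 0.14, and an adjusted p of 0.00168 by edgeR). PSEN2, a catalytic subunit of gamma-secretase, had -0.79 in NGP (standard error 0.14, adjusted p 0.00263 by edgeR), and is uncertain because another gene on its strand shares 68.8% of its exon length. In SK-N-BE2, 4 of 14 were higher and 6 lower. PSENEN, another gamma-secretase subunit, had -0.76 (standard error 0.16, adjusted p 0.00114 by edgeR) with 52.2% of its exon length shared with other genes. LFNG, a second Fringe enzyme, had 0.74 (standard error 0.29, adjusted p 0.0417 by edgeR), and lost its call without each of 5 of the 6 libraries (adjusted p up to 0.125).

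Among ubiquitin ligases and endocytic regulators, NEURL1, a ligase that helps ligands enter the cell, fell in both lines. Its log2 fold change was -0.58 in SK-N-BE2 (standard error 0.14, adjusted p 0.00327 by edgeR) and -1.04 in NGP (standard error 0.13, adjusted p 0.000444 by edgeR). DTX4, a Deltex ligase, rose from 1.42 ± 0.388 CPM to 5.90 ± 0.803 CPM in SK-N-BE2 (a log2 difference of 2.01 with standard error 0.22, and an adjusted p of 4.94e-06 by edgeR) and was nearly absent from NGP. MIB2, a Mind bomb ligase that acts on ligands, had -1.02 in NGP (standard error 0.27, adjusted p 0.0167 by edgeR), a call lost without STM2457 replicate 1 or 3 (adjusted p 0.0686 and 0.0631). In all, 3 of 13 were higher and 2 lower in SK-N-BE2, and 1 of 12 higher and 4 lower in NGP. The NGP total of 5 was 9 without DMSO replicate 1, 3 without STM2457 replicate 1 and 2 without STM2457 replicate 3, and the SK-N-BE2 total was 3 without STM2457 replicate 1.

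In the nuclear activation complex, 1 of 9 was higher and 3 lower in SK-N-BE2, and 2 were higher and 1 lower in NGP. MAML2, a Mastermind coactivator, rose in NGP from 2.34 ± 0.590 CPM to 8.49 ± 0.847 CPM (a log2 difference of 1.83 with standard error 0.22, and an adjusted p of 0.000332 by edgeR). A noncoding RNA on the other strand overlaps 8.96% of the MAML2 exon length, so that value is uncertain. KAT2B, a histone acetyltransferase, fell in NGP from 15.5 ± 1.38 CPM to 7.89 ± 0.820 CPM (adjusted p 0.000836 by edgeR). In SK-N-BE2 it had -0.42 (standard error 0.15, adjusted p 0.0329 by edgeR), lost without DMSO replicate 1 or without STM2457 replicate 1 or 2 (adjusted p up to 0.126). In SK-N-BE2, MAML1 fell by 0.34 on the log2 scale (standard error 0.08, adjusted p 0.00205 by edgeR). RBPJ, named after its value was seen, was the 1 called higher in SK-N-BE2, with a log2 fold change of 0.23 (edgeR adjusted p 0.0266). KAT2A, also named after its value was seen, had 0.79 in NGP. The SK-N-BE2 total of 4 was 2 without STM2457 replicate 1 and 1 without STM2457 replicate 2, and the NGP total of 3 was 7 without DMSO replicate 1.

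Of 12 corepressors, 3 were higher and 2 lower in SK-N-BE2, and 1 was higher and 2 lower in NGP. CIR1, which links RBPJ to histone deacetylases, fell by 0.40 in SK-N-BE2 (log2 scale, standard error 0.08, adjusted p 0.00103 by edgeR). TLE1, a Groucho corepressor used by HES proteins, had 0.34 there (standard error 0.10, adjusted p 0.0109 by edgeR) and lost its call without STM2457 replicate 1 (adjusted p 0.0833). HDAC2, a histone deacetylase, had -0.34 in NGP (adjusted p 0.0190 by edgeR), a call lost without DMSO replicate 3 or without any 1 of the 3 STM2457 libraries (adjusted p up to 0.0886). The SK-N-BE2 total of 5 was 3 without DMSO replicate 3, STM2457 replicate 1 or STM2457 replicate 3 and 2 without STM2457 replicate 2. The NGP total of 3 was 0 without DMSO replicate 3, STM2457 replicate 1 or STM2457 replicate 3, 1 without STM2457 replicate 2 and 5 without DMSO replicate 1.

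**Figure D4:**
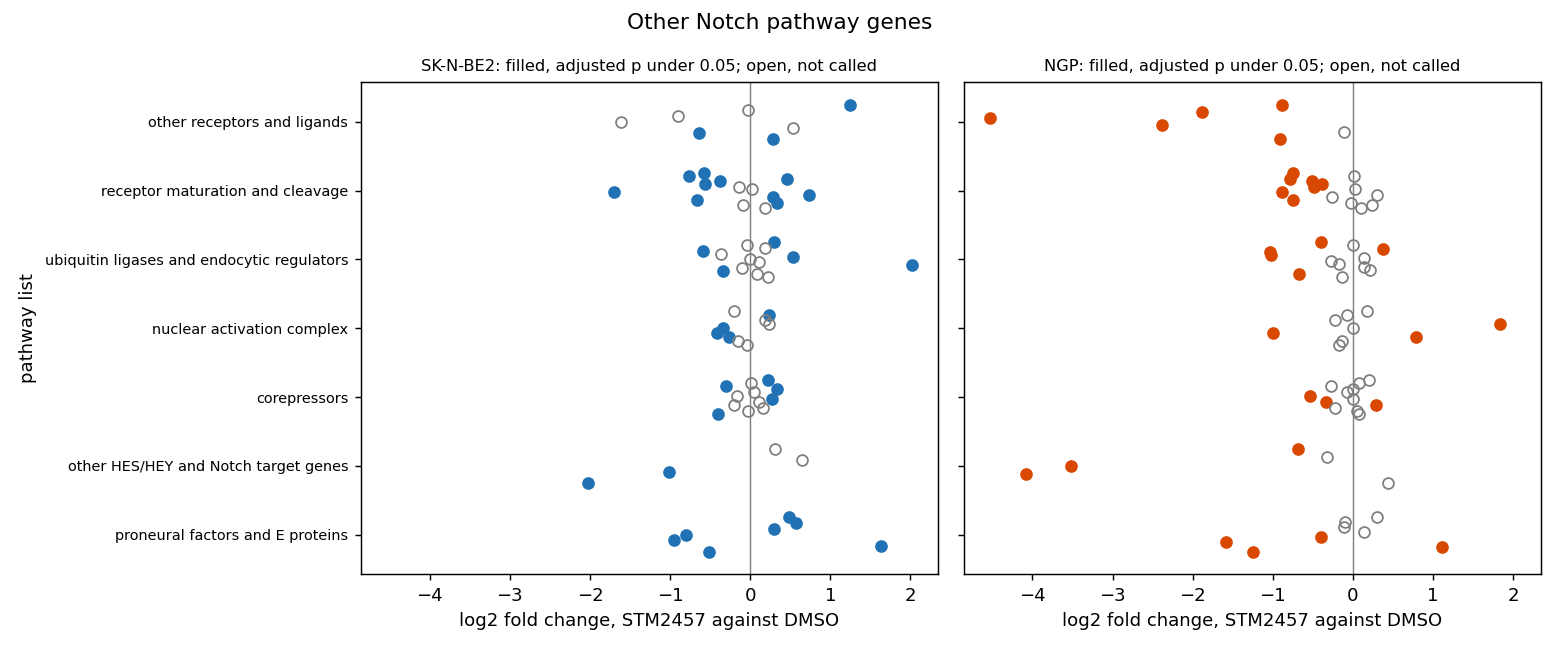
Log2 fold change of STM2457 against DMSO (horizontal axis) for each tested gene of the 7 pathway lists (rows) in SK-N-BE2 and NGP; filled points had an edgeR adjusted p under 0.05. In NGP 25 filled points lie left of 0 and 5 right of it, and in SK-N-BE2 19 and 17.

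Other HES, HEY and target genes had few reads, with 4 of 10 tested in SK-N-BE2 and 5 of 10 in NGP. HES7, an oscillating repressor of the segmentation clock, fell in NGP from 4.52 ± 1.46 CPM to 0.402 ± 0.242 CPM (a log2 difference of -3.52 with standard error 0.44, and an adjusted p of 0.000471 by edgeR). NRARP, a direct Notch target that dampens the pathway, fell in NGP by 0.69 (log2 scale, standard error 0.16, adjusted p 0.00904 by edgeR). HES2 also fell there (-4.09) from 0.734 ± 0.440 CPM to 0.0416 ± 0.0428 CPM, and was named after its value was seen. BHLHE40 and BHLHE41, related repressors of the clock, fell by 2.02 and 1.01 in SK-N-BE2 (log2 scale, edgeR adjusted p 2.63e-08 and 0.00213). An antisense transcript overlaps 12.8% of the exon length of BHLHE40, so its value is uncertain. In all, 2 were lower and 0 higher in SK-N-BE2, and 3 lower and 0 higher in NGP by edgeR. At an unadjusted p under 0.05, 0 were higher in SK-N-BE2 and 1 in NGP (BHLHE40, log2 fold change 0.44, edgeR adjusted p 0.0511). The SK-N-BE2 total of 2 was 4 without DMSO replicate 3, and the NGP total of 3 was 5 without DMSO replicate 1.

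INSM1, a zinc finger factor of neuroendocrine progenitors, fell by 0.95 in SK-N-BE2 and by 1.58 in NGP (log2 scale, edgeR adjusted p 0.000632 and 0.000156). ATOH8 rose in both, by 1.64 and 1.11 (edgeR adjusted p 4.64e-05 and 0.00452). In the list of proneural factors and E proteins, 4 of 7 tested were higher and 3 lower in SK-N-BE2, and 1 of 8 higher and 3 lower in NGP.

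Markers of other cell types were set beside these values. Of 6 mesenchymal markers, 5 were called higher in NGP and 0 lower (VIM, FN1, COL1A1, SNAI2 and TWIST1), with a summed level of 210 to 270 CPM with DMSO and 819 to 871 CPM with STM2457. In SK-N-BE2, 2 were called higher (FN1 at 1.70 and COL1A1 at 1.09 on the log2 scale) and 1 lower (VIM at -0.24). The sum there ran from 888 to 991 CPM with DMSO and from 844 to 916 CPM with STM2457. The sum of 4 endothelial markers was 0.0782 to 0.272 CPM in NGP with DMSO and 2.31 to 3.32 CPM with STM2457, with PECAM1 at 0 in both. In SK-N-BE2 it was 16.1 to 21.6 CPM and 9.98 to 12.2 CPM. KDR was the 1 endothelial marker with enough reads to test in NGP, at a log2 fold change of 4.30 (adjusted p 0.000247 by edgeR). In SK-N-BE2, 3 of the 4 were called lower, KDR among them. Schwann cell markers (5 examined) summed to 5.80 CPM or less in every library, with CDH19 at 0 in all groups but NGP STM2457. Immune markers summed to 7.37 CPM or less, with AIF1 at 0 in all 4 groups. In NGP, PTPRC and CD3E were at 0 as well, so the immune sum there was that of CD68 alone. CD68 is uncertain, since 85.6% of its exon length is shared with other genes. The part of these cell types in the Notch values was not tested. In these bulk libraries, fewer cells of a kind and less RNA per cell cannot be told apart.

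Genes with profiles most like that of HES4 were ranked by the root mean square difference of centred log2 CPM over the 12 libraries, among 12670 genes of at least 1 CPM on average. Among the 5 nearest were RPRML (0.47), CEBPD (0.68), KIF19 (0.71) and CBFA2T3 (0.74). RPRML measured 5.82 CPM on average in NGP with DMSO and 0.882 CPM with STM2457, and CEBPD 36.5 CPM and 7.63 CPM. For HES1, the tested member with the largest absolute response in SK-N-BE2, the nearest were MT-ND2 (0.26), BNIPL (0.32), AMY2B (0.33), GNB3 (0.33) and CCDC159 (0.33). AMY2B has near-identical copies and is uncertain. BNIPL measured 8.68 CPM and 3.88 CPM in SK-N-BE2 with DMSO and STM2457, and 0.838 CPM and 3.44 CPM in NGP.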

How the data were processed

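Poly(A) RNA of 12 samples was isolated and made into libraries by SMART cDNA synthesis, per the labels' protocols. Per the file headers, the deposited counts are reads per gene from featureCounts 2.0.5 in paired mode over exons of the GENCODE 33 protein-coding annotation, with no strand option and no option to count reads that fit several places. Per the submitters' processing notes, FastQC 0.11.5, Trimmomatic 0.36, HISAT2 2.1.0, Subread 1.5.3 and GRCh38 were used. Between 72.1% and 75.4% of the counts from 1 to 20 were even, so both mates of a pair may be counted. The headers name 1 folder for all SK-N-BE2 libraries and another for all NGP libraries, so the sequencing run possibly differed between the lines.

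Counts were tested as deposited with edgeR 4.0.16 in R 4.3.3 (limma 3.58.1): filterByExpr with a minimum count of 10, TMM factors, the quasi-likelihood F test and Benjamini-Hochberg adjustment over all genes tested, with a threshold of 0.05. Each line was fitted alone for its response, and all 12 libraries together for the untreated lines and for the difference of responses. Standard errors were derived from the F statistic, and log2 CPM used a prior count of 2. The script was tested on simulated data. Alternatives were other scalings, other filters, DESeq2 1.42.0, a replicate block, a joint fit, halved counts and leaving out each library. No 2 replicates agreed within sampling noise, and all were kept. GENCODE 44 gave exon overlaps, and RefSeq the promoters.

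The members and lists were chosen with earlier results of these data known. Named pathway genes were, for each list and line, up to 2 called genes with the largest absolute log2 fold change, non-overlapping replicates and a mean of at least 1 CPM in 1 of the groups. Any other gene is named after its values were seen. Some genes that these rules name, 1 of the Schwann cell markers among them, are not reported here.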

Additional observations from a re-analysis of the deposited data

Results flagged for a closer look

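The following responses to STM2457 differed between the lines, given as SK-N-BE2 minus NGP on the log2 scale. HES1 stood at -2.68 because every treated library lay below its controls in SK-N-BE2 and above them in NGP. That difference was not tested, since the NGP response chose the members. For named pathway genes outside the members the difference was tested with edgeR's quasi-likelihood test, adjusted over 14731 genes, and those described here passed. Those higher in SK-N-BE2 than in NGP were HES7 at 4.18 (adjusted p 0.000237), DLK2 at 2.93 (adjusted p 3.67e-05), DLL4 at 2.92 (adjusted p 0.0476) and PSEN2 at 1.26 (adjusted p 0.000172). NRARP at 1.00 (adjusted p 0.00392), KAT2B at 0.59 (adjusted p 0.0349) and HDAC2 at 0.46 (adjusted p 0.00760) were also higher. Those lower were BHLHE40 at -2.45 (adjusted p 5.97e-07), MAML2 at -1.58 (adjusted p 0.000116), DLK1 at -0.52 (adjusted p 0.0494) and CIR1 at -0.46 (adjusted p 0.0166). DLL4 lost its call in 12 of 19 alternatives and turned in 1, DLK1 lost its call in 12 and KAT2B in 10. In SK-N-BE2 with STM2457, DLL4 had 18 reads, all in 1 library, with a median of 0 and a highest value of 0.352 CPM. Dose, and possibly sequencing run, differed between the lines and cannot be told apart from the line.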

How the results depend on the processing

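No count of called genes over the whole table, and neither total over all pathway lists, moved by over 1.5 times in any alternative run. Counts of 5 of the 7 single lists did so when 1 library was left out, as given in the report, and in the joint fit other receptors and ligands went from 3 to 1 and corepressors from 5 to 3 in SK-N-BE2. Leaving out 1 library gave 6497 to 7849 called genes in SK-N-BE2 and 3816 to 7897 in NGP. The pathway total of SK-N-BE2 then lay between 24 and 37 and that of NGP between 20 and 44. Of the members' SK-N-BE2 values under alternatives, 116 of 122 kept direction and side of the threshold, and 124 of 125 NGP values moved by less than the replicate spread. HES4 in SK-N-BE2 changed sign to 0.051 with the replicate block, and ran from -0.58 to 1.07 when 1 library was left out. DLL3 in SK-N-BE2 ran from -0.28 to 0.076 (the latter without DMSO replicate 3), and the DLL4 response difference from -2.66 (without STM2457 replicate 2 of SK-N-BE2) to 3.52. The cause was not tested. The alternatives for response differences of single genes were chosen after seeing the data. Same-numbered replicates did not deviate together (correlations from -0.07 to 0.09), so no sign of pairing by number was seen. With 3 replicates per group this cannot show whether the libraries were made in pairs, and the labels do not say. With the replicate number as a block, 7522 genes were called in SK-N-BE2, 5026 in NGP, 10147 between the untreated lines and 4025 for the response difference, and 0 calls of named genes changed in either line. Under filters that removed them, low genes such as HES4 and NOTCH4 gave no value. Depth limits HES4, DLL1, JAG1 and DLL4 in SK-N-BE2 and NOTCH2 and NOTCH3 in NGP.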
